A study of Homo sapiens with 2 samples.

Results

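The genes described here are 41 genes of mitosis and the kinetochore, chosen by name from the 55773 gene symbols of the expression tables, and all 41 had a row of their own in both libraries. They were followed in BFTC 905, an established human bladder carcinoma line of urothelial origin. The ANGPTL4 library came from BFTC 905 cells transfected with a plasmid that overexpresses ANGPTL4, a secreted inhibitor of lipoprotein lipase. The vector control library came from the same line transfected with empty pcDNA3.1. Both were grown in RPMI-1640 with serum and selected as stable clones in G418 at 400 µg/ml. The labels do not say how many clones a library holds. Total RNA was sequenced, with 1 library in each group. Differences therefore have no replicate check and no p-value, and each one is between 2 libraries and does not extend to the transfections as such.

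Mitosis is driven by CDK1 bound to A- and B-type cyclins, with the Aurora and Polo kinases acting beside it. Chromosomes attach to spindle microtubules through the kinetochore, a protein assembly built on nucleosomes that carry the histone variant CENP-A, and the spindle checkpoint holds back the anaphase-promoting complex until every kinetochore is attached. Many of these genes are transcribed mainly in G2 and M phase, under the FOXM1, MYBL2 and DREAM regulators, and their RNA is widely used as a measure of how many cells in a tumour are dividing. Fewer cells in G2 and M phase and less RNA per such cell cannot be told apart in bulk RNA.

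Levels are RPKM (reads scaled to the length of the exons and to the depth of the library), as deposited by the authors. The steps between RPKM values corresponded to 3233596 reads in the ANGPTL4 library and 6572767 reads in the vector control library, a 2.03-fold difference in depth. The plasmid was visible in the target itself, since ANGPTL4 stood at 91.2 RPKM in the ANGPTL4 library and 3.92 RPKM in the vector control library. All 10 urothelial carcinoma markers listed reached 1 RPKM in at least 1 library, with 6 lower and 4 higher in the ANGPTL4 library and none 1.5-fold different. The ends of that list by ratio, not by level, were PPARG and TP63. PPARG, the lowest, was at 4.13 RPKM in the ANGPTL4 library and 6.09 RPKM in the vector control library. TP63, the highest, was at 39.4 RPKM in the ANGPTL4 library and 32.1 RPKM in the vector control library. Of 6 fibroblast markers, COL1A1 alone reached 1 RPKM, at 4.06 RPKM in the ANGPTL4 library and 4.14 RPKM in the vector control library. Of 5 leukocyte markers CD14 alone reached 1 RPKM, PTPRC was listed at 0 in the ANGPTL4 library and at 0.0179 RPKM in the vector control library, and no endothelial marker analysed reached 1 RPKM.

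The promoters of the genes at either end of the range are shown first, because G2 and M phase genes are known for the cell cycle genes homology region (CHR, letters TTTGAA), read by DREAM, MYBL2 and FOXM1 complexes, often beside the CCAAT box (letters CCAAT) bound by NF-Y. RefSeq promoters on GRCh38.p14, running from 250 bases before to 50 bases after the gene start, were matched by symbol for 34 of the 41 genes. The sequences below are those of the 3 genes with the lowest and the 2 with the highest log2 ratio among genes with a single RefSeq promoter. Capitals mark TTTGAA or TTCAAA (the CHR on either strand) and CCAAT or ATTGG (the CCAAT box on either strand). In MKI67 a CHR and a CCAAT box share 1 base and print as a single run.
CENPA: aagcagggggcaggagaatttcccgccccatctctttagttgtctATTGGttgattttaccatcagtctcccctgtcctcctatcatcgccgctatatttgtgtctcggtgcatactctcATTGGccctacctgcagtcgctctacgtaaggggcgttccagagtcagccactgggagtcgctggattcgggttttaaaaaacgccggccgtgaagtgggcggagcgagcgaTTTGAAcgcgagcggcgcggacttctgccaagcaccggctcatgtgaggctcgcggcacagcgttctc
CENPW: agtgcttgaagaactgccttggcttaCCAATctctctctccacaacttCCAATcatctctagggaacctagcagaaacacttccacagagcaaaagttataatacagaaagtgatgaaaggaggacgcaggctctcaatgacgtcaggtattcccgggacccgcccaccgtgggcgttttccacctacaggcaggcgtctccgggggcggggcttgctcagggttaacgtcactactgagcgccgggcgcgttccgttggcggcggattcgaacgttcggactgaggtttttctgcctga
NDC80: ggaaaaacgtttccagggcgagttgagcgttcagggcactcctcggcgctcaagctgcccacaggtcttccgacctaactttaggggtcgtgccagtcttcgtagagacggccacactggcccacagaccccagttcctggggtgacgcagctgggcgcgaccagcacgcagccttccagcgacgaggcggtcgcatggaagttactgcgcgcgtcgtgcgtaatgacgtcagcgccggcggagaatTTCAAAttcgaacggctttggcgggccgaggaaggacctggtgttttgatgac
MKI67: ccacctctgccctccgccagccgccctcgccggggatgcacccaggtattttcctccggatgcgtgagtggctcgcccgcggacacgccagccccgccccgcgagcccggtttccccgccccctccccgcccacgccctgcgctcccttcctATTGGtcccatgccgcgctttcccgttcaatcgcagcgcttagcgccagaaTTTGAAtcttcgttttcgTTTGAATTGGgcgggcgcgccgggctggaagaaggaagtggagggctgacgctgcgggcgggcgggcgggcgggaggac
NUSAP1: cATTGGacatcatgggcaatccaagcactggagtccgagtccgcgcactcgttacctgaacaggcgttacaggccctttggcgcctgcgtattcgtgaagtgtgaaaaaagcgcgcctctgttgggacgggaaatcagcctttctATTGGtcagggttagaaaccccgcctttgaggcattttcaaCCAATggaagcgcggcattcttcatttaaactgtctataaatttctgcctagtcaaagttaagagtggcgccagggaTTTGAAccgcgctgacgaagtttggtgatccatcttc

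These windows lie at chr2:26785806-26786105 on the plus strand for CENPA, chr6:126339865-126340164 on the plus strand for CENPW, chr18:2571307-2571606 on the plus strand for NDC80, chr10:128126374-128126673 on the minus strand for MKI67 and chr15:41332631-41332930 on the plus strand for NUSAP1. A CHR was found in the windows of 23 of the 34 genes, or 67.6%, against 18.2% of all 27305 symbols with a promoter. A CCAAT box was found in 28 of 34, or 82.4%, against 39.7% of all symbols, and both motifs in 20 of 34, or 58.8%, against 8.37%. A CHR stands in genes from both ends of the range, CENPA and NDC80 as well as MKI67 and NUSAP1. Genes with a CHR had a median log2 ratio of -0.22 (n = 23, range -0.96 to 0.40) and genes without one -0.27 (n = 11, range -0.91 to -0.04), which is a description of 34 chosen genes and not a test. A match is a run of letters and not a shown binding site.

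Most of the 41 genes were somewhat lower in the ANGPTL4 library, as were most genes of the transcriptome, and a small group led by CENPA, CENPW, NDC80 and CDK1 was lower by more than 1.5-fold. The log2 ratio used throughout is log2 of the quotient of RPKM + 1, ANGPTL4 library over vector control library, where the added 1 understates the differences of low genes. Of 41 genes, 30 had a log2 ratio below 0, and 11 above 0, against 64.4% below 0 among all 11802 measured genes, those that reached 1 RPKM in at least 1 library. The median log2 ratio of the 41 was -0.24, and that of all measured genes -0.11. All 41 passed the minimum of 1 RPKM in both libraries, so none entered through 1 library alone.

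Values at least 1.5-fold lower in the ANGPTL4 library on the log2(RPKM + 1) scale were found for 7 of 41 genes, against 9.25% of all measured genes. They were CENPA, CENPW, NDC80, CDK1, BIRC5, CCNB1 and CENPN. None was at least 1.5-fold higher, against 3.08% of all measured genes. On the same scale none differed 2-fold in either direction, against 1.91% lower and 1.19% higher among all measured genes. Without the added 1, the RPKM ratios of CENPA and CENPW were 0.465 and 0.492, past 2-fold. With 0.1 added in place of 1, 2 of the 41 were at least 2-fold lower, against 4.51% of all measured genes. The reads behind each gene were recovered for 38 of the 41, and for BUB3, CCNB2 and UBE2C they are minimum numbers. They ran between 15 and 2858 in the ANGPTL4 library, with a median of 201, and between 62 and 4763 in the vector control library, with a median of 508. Exact 95% intervals of the ratio, which cover counting error only, lay wholly below 1 for 18 of the 38 genes, against 27.8% of 9300 measured genes whose reads were recovered the same way, and wholly above 1 for 4 of 38, against 8.23%. Whether an interval excludes 1 also depends on the number of reads, for which the 9300 genes were not matched. In at least 1 library, 39 of the 41 genes reached 5 RPKM, against 6855 of 11802 measured genes. The 2 shares are therefore not directly comparable.

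**Figure D1:**
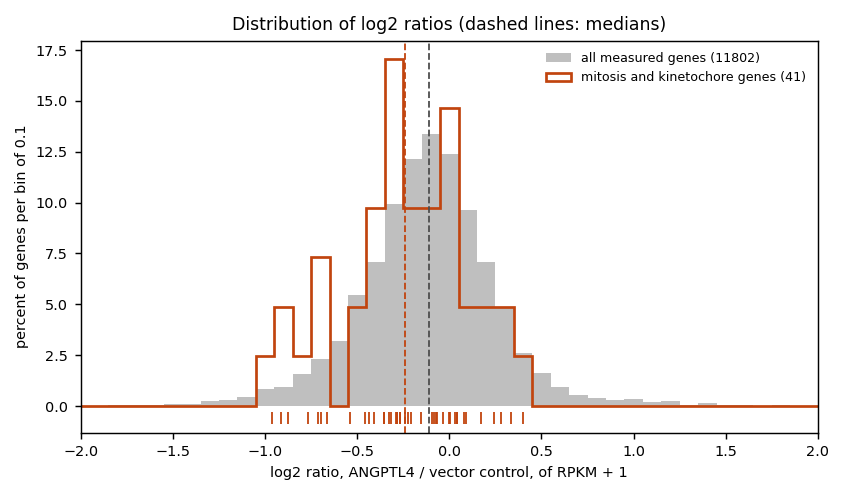
Percent of genes per bin of 0.1 in the log2 ratio of RPKM + 1, ANGPTL4 library over vector control library, for the 41 mitosis and kinetochore genes (outline, with a tick for each gene) and for all 11802 measured genes (grey), drawn between -2 and 2. The dashed medians stand at -0.24 for the 41 genes and -0.11 for all measured genes, and the 41 genes reach no further than -0.96 and 0.40.

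By summed reads, in which long and abundant genes weigh most, the set was closer to equal than its median gene. Summed over the 38 genes with recovered reads, the set held 11676 reads in the ANGPTL4 library and 25239 reads in the vector control library, which is 0.361% of reads in the ANGPTL4 library and 0.384% of reads in the vector control library, a ratio of 0.940 (95% interval 0.920 to 0.961). The most abundant gene by reads, MKI67, went the other way from the median and had 2858 reads in the ANGPTL4 library and 4763 in the vector control library.

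CDK1, CCNB1 and CCNA2 were lower in the ANGPTL4 library, and the transcription factor FOXM1 was higher. CDK1, the kinase whose activation starts mitosis, was at 13.4 RPKM in the ANGPTL4 library and 23.6 RPKM in the vector control library, a ratio of 0.569 (95% interval 0.477 to 0.676). Its partner cyclin B1, CCNB1, was at 27.3 RPKM in the ANGPTL4 library and 45.0 RPKM in the vector control library (ratio 0.608, 0.521 to 0.706). The other B-type cyclin did not follow it to the same extent, since CCNB2 was at 28.5 RPKM in the ANGPTL4 library and 33.4 RPKM in the vector control library. Its interval held 1 (0.707 to 1.02), but it rests on minimum numbers of reads. More reads would narrow it, so whether it holds 1 is not settled. CCNA2, the cyclin of S and G2 phase, was at 37.5 RPKM in the ANGPTL4 library and 48.2 RPKM in the vector control library (ratio 0.777, 0.683 to 0.881). CDC25C, the phosphatase that activates CDK1, had the lowest level of the 41 genes in the ANGPTL4 library, 2.74 RPKM, against 3.50 RPKM in the vector control library. With 27 reads in the ANGPTL4 library and 70 in the vector control library, a difference in CDC25C was not detectable at this depth (0.483 to 1.24). FOXM1, the forkhead factor that activates G2 and M phase genes, was at 28.4 RPKM in the ANGPTL4 library and 22.4 RPKM in the vector control library (ratio 1.27, 1.13 to 1.44). The region of FOXM1 overlaps those of ITFG2 and RHNO1, and RHNO1 was at 5.51 RPKM in the ANGPTL4 library and 6.66 RPKM in the vector control library.

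**Figure D2:**
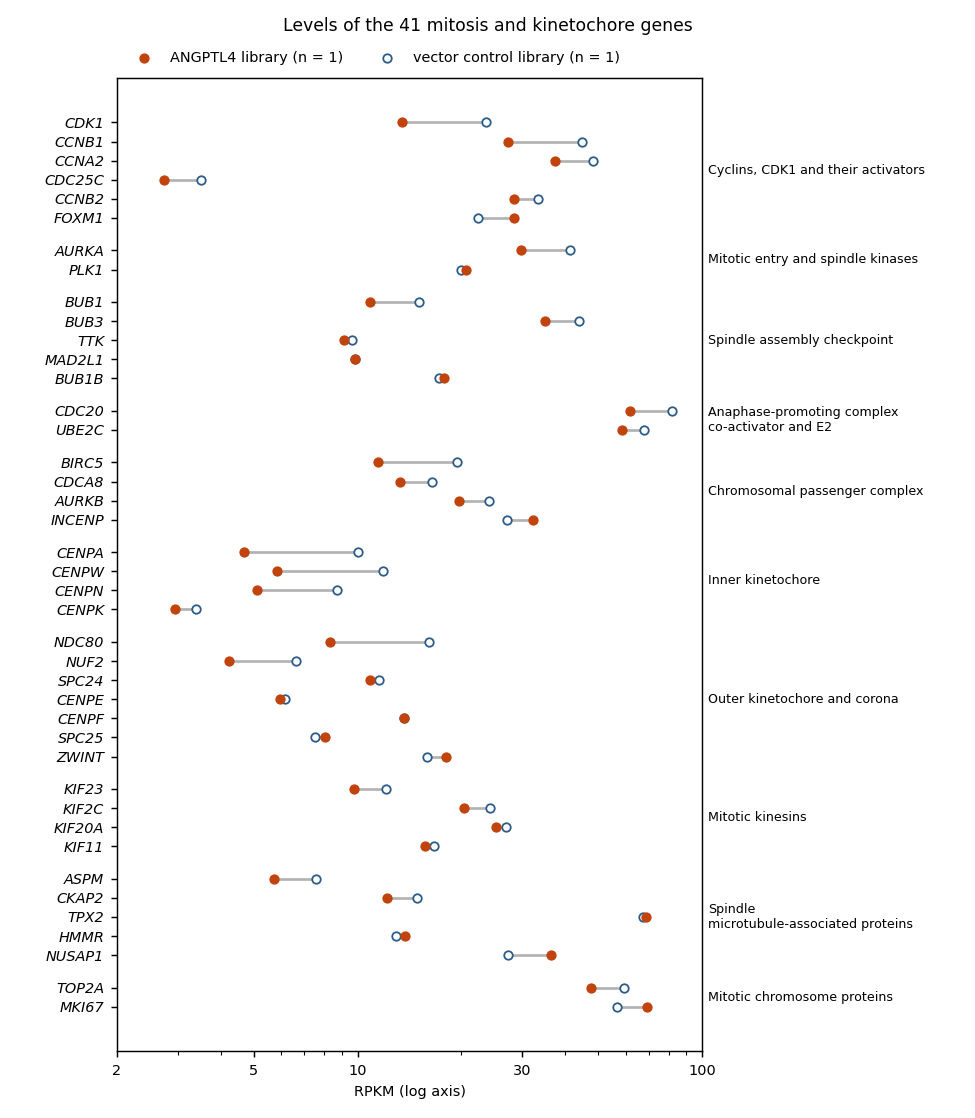
RPKM on a log axis of each of the 41 genes in the ANGPTL4 library (filled) and the vector control library (open), grouped by role, with 1 library per group. CENPA, CENPW, NDC80, CDK1, CENPN, BIRC5 and CCNB1 show the widest gaps on the lower side, and NUSAP1, FOXM1 and MKI67 lie to the right of their vector control values.

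The Aurora and Polo kinases differed from each other. AURKA, which matures centrosomes and builds the spindle poles, was at 29.9 RPKM in the ANGPTL4 library and 41.4 RPKM in the vector control library (ratio 0.723, 0.629 to 0.829). PLK1, the Polo kinase of mitotic entry, was at 20.7 RPKM in the ANGPTL4 library and 20.0 RPKM in the vector control library (ratio 1.03, 0.899 to 1.18). The interval of AURKA lies below that of PLK1 without overlap. TPX2, the microtubule protein that activates Aurora A, was near equal, at 68.9 RPKM in the ANGPTL4 library and 67.4 RPKM in the vector control library.

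Of 5 spindle checkpoint genes, BUB1 and BUB3 had intervals below 1, although these overlapped with intervals of other checkpoint genes. BUB1, the checkpoint kinase that marks centromeric histone H2A, was at 10.9 RPKM in the ANGPTL4 library and 15.1 RPKM in the vector control library (ratio 0.722, 0.614 to 0.846). BUB3, its adaptor, was at 35.0 RPKM in the ANGPTL4 library and 44.0 RPKM in the vector control library (ratio 0.794, 0.701 to 0.897). MAD2L1, which binds and inhibits CDC20, was nearest to equal of the 41 genes, at 9.85 RPKM in both libraries. BUB1B (BubR1), which joins it in the mitotic checkpoint complex, was at 17.8 RPKM in the ANGPTL4 library and 17.2 RPKM in the vector control library. TTK, the MPS1 kinase at the top of the checkpoint, was at 9.12 RPKM in the ANGPTL4 library and 9.60 RPKM in the vector control library. The intervals of MAD2L1, BUB1B and TTK all held 1. The 2 members of the anaphase-promoting pathway were lower, with CDC20, its mitotic co-activator, at 61.6 RPKM in the ANGPTL4 library and 82.0 RPKM in the vector control library (ratio 0.752, 0.669 to 0.843). UBE2C, the E2 enzyme that starts its ubiquitin chains, was at 58.6 RPKM in the ANGPTL4 library and 68.0 RPKM in the vector control library (ratio 0.862, 0.753 to 0.986).

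The chromosomal passenger complex, which corrects faulty attachments and directs cytokinesis, held genes on both sides of 1. BIRC5 (survivin), the subunit that reads the centromeric histone mark, was at 11.4 RPKM in the ANGPTL4 library and 19.4 RPKM in the vector control library (ratio 0.590, 0.485 to 0.713). INCENP, the scaffold, was at 32.2 RPKM in the ANGPTL4 library and 27.1 RPKM in the vector control library (ratio 1.19, 1.06 to 1.34). Between them lay AURKB, the catalytic subunit, at 19.6 RPKM in the ANGPTL4 library and 24.1 RPKM in the vector control library, and CDCA8 (borealin) at 13.3 RPKM in the ANGPTL4 library and 16.4 RPKM in the vector control library. The highest subunit, INCENP, stood 2.82-fold above the lowest in the ANGPTL4 library, which was BIRC5, and 1.65-fold above the lowest in the vector control library, which was CDCA8, both on the RPKM scale.

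Of the role groups, the inner kinetochore had the lowest median log2 ratio, -0.79, with all 4 genes below 0. Counted from the lowest log2 ratio of the 41 genes, CENPA ranked 1, CENPW 2, CENPN 7 and CENPK 24. Inner kinetochore genes outside the 41 lay on both sides of 1, with CENPH lower and CENPT higher, as given below. CENPA (hg19 chromosome 2, 26987157 to 27023935), the histone H3 variant that marks centromeres, was at 4.68 RPKM in the ANGPTL4 library and 10.1 RPKM in the vector control library. Its ratio was 0.465 (0.302 to 0.696), from 30 reads in the ANGPTL4 library and 131 in the vector control library. The CENPA region overlaps that of SLC35F6, which was at 5.94 RPKM in the ANGPTL4 library and 3.43 RPKM in the vector control library, and how shared reads were assigned is not known. CENPW (chromosome 6, 126661320 to 126670021), the histone-fold partner of CENP-T, was at 5.83 RPKM in the ANGPTL4 library and 11.9 RPKM in the vector control library. With 15 reads in the ANGPTL4 library and 62 in the vector control library, its interval was wide (ratio 0.492, 0.260 to 0.875). CENPN, which reads the CENP-A nucleosome, was at 5.11 RPKM in the ANGPTL4 library and 8.70 RPKM in the vector control library (ratio 0.588, 0.432 to 0.789). CMC2 overlaps CENPN and was lower too, at 5.14 RPKM in the ANGPTL4 library and 7.46 RPKM in the vector control library. CENPK, a subunit of the CENP-H and CENP-I group, was at 2.94 RPKM in the ANGPTL4 library and 3.39 RPKM in the vector control library, from 41 reads in the ANGPTL4 library and 96 in the vector control library, with an interval of 0.587 to 1.26.

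**Figure D3:**
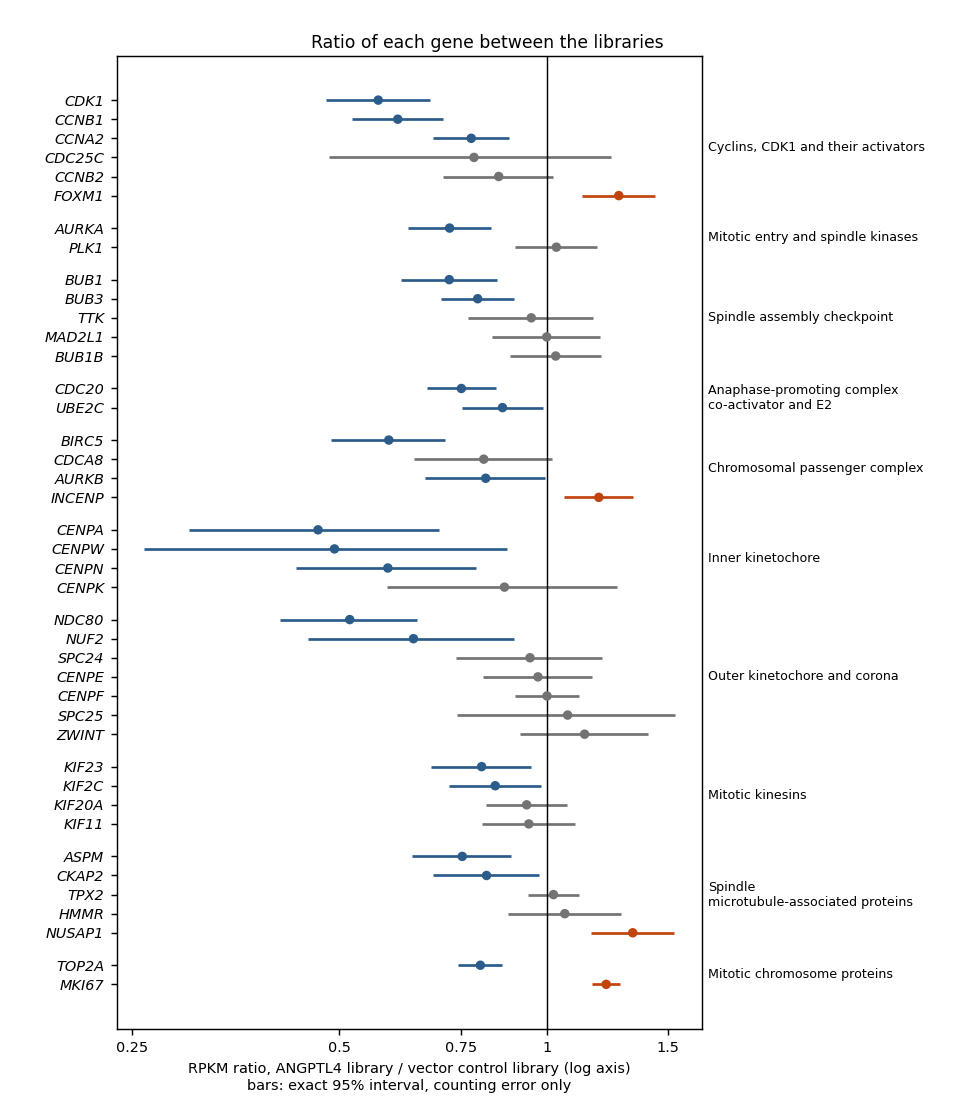
RPKM ratio of each of the 41 genes, ANGPTL4 library over vector control library, on a log axis, with exact 95% intervals for counting error only. Intervals wholly below 1 are blue, those wholly above 1 are red and those that hold 1 are grey; BUB3, CCNB2 and UBE2C rest on minimum numbers of reads. The intervals of CENPA, CENPW, NDC80, CDK1, BIRC5, CCNB1 and CENPN end below 0.9, as do those of further genes such as AURKA, BUB1 and CDC20. Those of FOXM1, INCENP, NUSAP1 and MKI67 start above 1.

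Outer kinetochore genes differed among themselves, also within the NDC80 complex, which holds the microtubule end and is built from NDC80, NUF2, SPC24 and SPC25. NDC80 (chromosome 18, 2571510 to 2616634) was at 8.33 RPKM in the ANGPTL4 library and 16.1 RPKM in the vector control library (ratio 0.517, 0.410 to 0.648). NUF2, the subunit wound around NDC80, was at 4.23 RPKM in the ANGPTL4 library and 6.61 RPKM in the vector control library (ratio 0.640, 0.449 to 0.898). The subunits that join the complex to the inner kinetochore were near equal, SPC24 at 10.9 RPKM in the ANGPTL4 library and 11.5 RPKM in the vector control library and SPC25 at 8.06 RPKM in the ANGPTL4 library and 7.52 RPKM in the vector control library. CENPF, a large protein of the kinetochore corona, was at 13.7 RPKM in the ANGPTL4 library and 13.6 RPKM in the vector control library, and CENPE, the kinesin of the corona, at 5.96 RPKM in the ANGPTL4 library and 6.14 RPKM in the vector control library. The intervals of SPC24, SPC25, CENPF and CENPE all held 1. ZWINT, which recruits the dynein adaptor complex, was at 18.1 RPKM in the ANGPTL4 library and 15.9 RPKM in the vector control library, with an interval that held 1 (0.915 to 1.40).

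Mitotic kinesins differed little. The 4 ratios lay between 0.804 and 0.942, against an all-gene median log2 ratio of -0.11, and their log2 ratios between -0.29 and -0.08. KIF23, a motor of the central spindle, was at 9.75 RPKM in the ANGPTL4 library and 12.1 RPKM in the vector control library (ratio 0.804, 0.680 to 0.949), and KIF2C, the microtubule depolymerase MCAK, at 20.4 RPKM in the ANGPTL4 library and 24.2 RPKM in the vector control library (0.842, 0.721 to 0.980). KIF20A, a motor of cytokinesis, was at 25.2 RPKM in the ANGPTL4 library and 26.9 RPKM in the vector control library, and KIF11 (Eg5), which separates the spindle poles, at 15.7 RPKM in the ANGPTL4 library and 16.6 RPKM in the vector control library. The intervals of KIF20A and KIF11 held 1.

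Spindle microtubule-associated proteins and the chromosome proteins held genes on both sides of 1, none of them 1.5-fold different. NUSAP1 (chromosome 15, 41624892 to 41673248), which bundles microtubules near chromosomes, had the highest ratio of the 41 genes. It was at 36.5 RPKM in the ANGPTL4 library and 27.4 RPKM in the vector control library (ratio 1.33, 1.16 to 1.53). HMMR, a spindle pole protein, was at 13.7 RPKM in the ANGPTL4 library and 12.9 RPKM in the vector control library. ASPM, a spindle pole protein known from microcephaly, was at 5.71 RPKM in the ANGPTL4 library and 7.57 RPKM in the vector control library (ratio 0.754, 0.638 to 0.888), and CKAP2, a microtubule stabiliser, at 12.2 RPKM in the ANGPTL4 library and 14.9 RPKM in the vector control library (0.818, 0.684 to 0.975). The 2 chromosome proteins, both widely used as proliferation markers, lay on opposite sides of 1. MKI67 (Ki-67), the chromosome surface protein, was at 69.0 RPKM in the ANGPTL4 library and 56.6 RPKM in the vector control library (ratio 1.22, 1.16 to 1.28). TOP2A, the topoisomerase that untangles sister chromatids, was at 47.5 RPKM in the ANGPTL4 library and 59.3 RPKM in the vector control library (ratio 0.801, 0.743 to 0.862). MKI67 was the most abundant of the 41 genes in the ANGPTL4 library, and CDC20 in the vector control library.

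The other genes of mitosis, in lists chosen by function, had list medians between -0.20 and -0.11. Among 30 other kinetochore genes, 8 were at least 1.5-fold lower, 1 at least 1.5-fold higher, and the median log2 ratio was -0.17, against 9.25% lower and 3.08% higher among all measured genes. CENPH, an inner kinetochore subunit, was at 4.96 RPKM in the ANGPTL4 library and 14.9 RPKM in the vector control library (ratio 0.333, 0.227 to 0.475), lower than any of the 41 genes. MIS18A, of the complex that licenses the loading of CENP-A, was at 11.7 RPKM in the ANGPTL4 library and 7.15 RPKM in the vector control library (1.63, 1.16 to 2.29). By any amount, 18 of the 30 were lower and 12 higher, against 64.4% lower among all measured genes. CENPT, an inner kinetochore subunit, was higher, at 7.15 RPKM in the ANGPTL4 library and 4.64 RPKM in the vector control library (1.54, 1.21 to 1.95). Its log2 ratio of RPKM + 1 was 0.53, short of 1.5-fold. The other genes of that list at least 1.5-fold lower were CENPL, CENPM, CENPQ, APITD1, MIS12, OIP5 and ZW10. They had between 4 and 38 reads in the ANGPTL4 library and between 35 and 127 reads in the vector control library. The intervals of CENPQ and OIP5 held 1.

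The lists in this paragraph stand beside 9.25% of all measured genes at least 1.5-fold lower, 3.08% higher and an all-gene median of -0.11. The share at least 1.5-fold lower was 14.3% for anaphase-promoting complex subunits and 4.76% for condensin and cohesin. It was 0% for other spindle and cytokinesis genes and 4% for G2/M regulators. The lists hold between 14 and 31 genes, so 1 gene moves a share by several percent. These shares are therefore not read as differences from the background. Of 14 anaphase-promoting complex subunits, 2 were at least 1.5-fold lower and none higher, with a median log2 ratio of -0.20. The ends of that list were ANAPC11, its RING subunit, at 7.48 RPKM in the ANGPTL4 library and 15.1 RPKM in the vector control library (ANAPC16 was the other lower gene), and CDC23 at 23.4 RPKM in the ANGPTL4 library and 19.5 RPKM in the vector control library. Of 21 condensin and cohesin genes, 1 was at least 1.5-fold lower and none higher (median -0.15), with NCAPH2 of condensin II at 5.38 RPKM in the ANGPTL4 library and 9.49 RPKM in the vector control library, and PTTG1 (securin) at 55.1 RPKM in the ANGPTL4 library and 43.5 RPKM in the vector control library. None of 31 other spindle and cytokinesis genes differed 1.5-fold (median -0.14). The ends of that list were HAUS8, of the augmin complex, at 2.14 RPKM in the ANGPTL4 library and 3.20 RPKM in the vector control library, and PSRC1, at 8.02 RPKM in the ANGPTL4 library and 5.76 RPKM in the vector control library. Among 25 measured G2/M regulators 1 was at least 1.5-fold lower (median -0.11). It was PLK4, the kinase of centriole duplication, at 3.79 RPKM in the ANGPTL4 library and 7.09 RPKM in the vector control library. MYBL2, which works with FOXM1 on CHR promoters, was the highest in that list, at 54.2 RPKM in the ANGPTL4 library and 48.8 RPKM in the vector control library (1.11, 0.991 to 1.24).

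Longer genes tended to have the higher log2 ratios among the 41 genes. Across these genes, which share both libraries and are not independent replicates, Pearson's r between the log2 ratio and log2 exon length was 0.33 and Spearman's rho 0.28 (n = 41), against 0.03 and 0.08 for 10698 measured genes with an annotated length. For GC content r was 0.17 and rho 0.15 among the 41, close to the 0.11 and 0.13 of the measured genes. The 4 genes under 2 kb had a median log2 ratio of -0.56, the 20 genes of 2 to 4 kb -0.28 and the 17 longer genes -0.07, while the medians of all measured genes in the same length classes were -0.12, -0.14 and -0.11. The median exon length of the 41 was 3815 bases and their median GC content 43.2%, against 5000 bases and 48.5% for all measured genes. With a smooth dependence on length and GC removed, the median of the 41 genes was -0.07 and that of all measured genes 0.01. CENPA, CENPW and NDC80 were then still at least 1.5-fold lower, at -0.76, -0.77 and -0.63 on the log2 scale, and NUSAP1 was at least 1.5-fold higher, at 0.65. The part of length or GC in any difference given here was not tested.

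**Figure D4:**
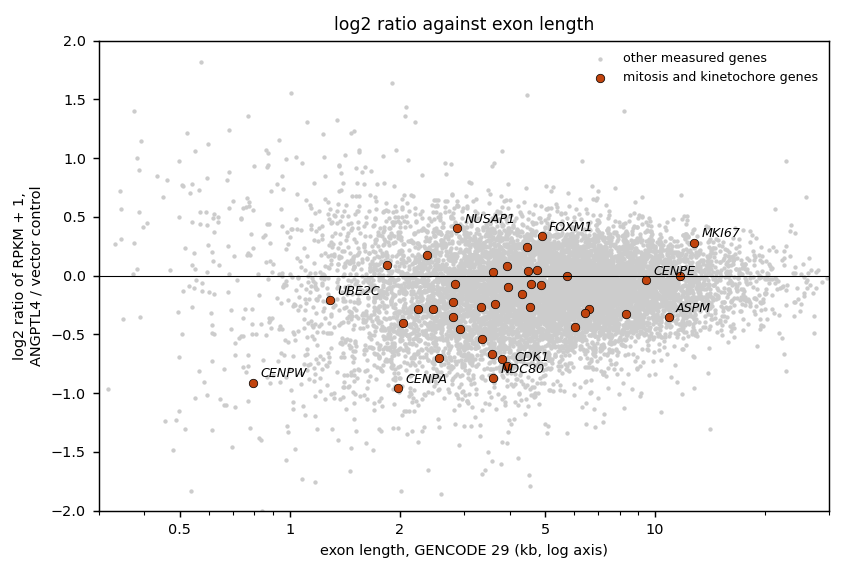
log2 ratio of RPKM + 1, ANGPTL4 library over vector control library, against exon length in kb on a log axis, for the 41 genes (red) and the other measured genes with an annotated length (grey); genes beyond the axes are not drawn. CENPA and CENPW lie at the short end below -0.9, and the genes above 4 kb lie around their median of -0.07.

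Direction depended on scaling for some genes and not for others. The median of the 41 genes was below 0 and below that of all genes under each of the 10 alternative settings, between -0.39 and -0.07. Of the 41 genes, 22 were lower in the ANGPTL4 library under the reported and all 10 alternative settings, CDK1, CCNB1, CENPA, CENPN, CENPW, NDC80, NUF2 and BIRC5 among them. FOXM1, INCENP, ZWINT, NUSAP1 and MKI67 were higher under every one of them. The other 14 genes, such as PLK1 and KIF11, changed side under at least 1. Among all genes kept, the share lower ran from 47.2% with upper-quartile scaling to 79.9% when rescaled to a fixed total. The share of all genes on the same side under every setting is not given here, so these counts have no background beside them. Centring on the median gene, which shifts all log2 ratios by 0.11, left 24 of 41 genes below 0, while all measured genes by construction split evenly. Rescaling to a fixed total put 36 below 0, against 79.9% of all measured genes.

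**Figure D5:**
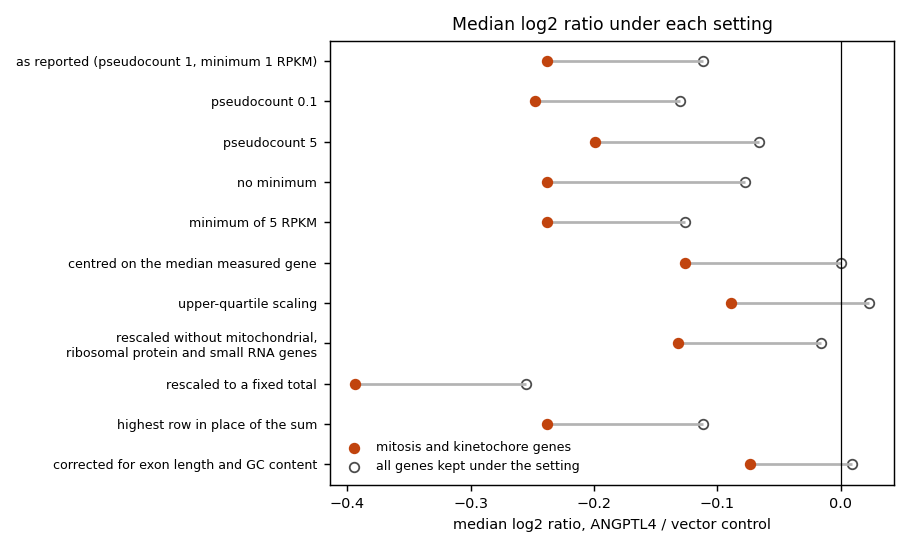
Median log2 ratio, ANGPTL4 library over vector control library, of the 41 genes (filled) and of all genes kept under the setting (open), for the reported setting and the 10 alternatives. The 41 genes lie left of all genes in each row, at -0.24 against -0.11 as reported and at -0.07 against 0.01 once length and GC were corrected.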

How the data were processed

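TRIzol-extracted total RNA of the BFTC 905 lines was sequenced, per the labels, with 1 library per group. The authors deposited RPKM, with 1 value for each gene row, per the file headers. Reads were placed on hg19 per the submitters' processing notes, and the aligner, counter, annotation and use of strand are not given in the sources used here. Both tables held 57773 rows. Rows of the same symbol, told apart by a numeric suffix, were summed, leaving 55773 symbols. Region starts count from 0 in the tables and from 1 here.

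Library totals were found as the whole number at which all 13 mitochondrial protein genes gave whole reads (tolerance 0.001). Each gene's exon length was the one at which both libraries gave whole reads (tolerance 2e-05), nearest to and within 10% of its GENCODE 29 length; this held for 38 of the 41 genes, 28 of them at the GENCODE length itself. For the other 3 the smallest such length was used. Intervals are exact 95% binomial intervals on these reads and cover counting error only. Exon length and GC content were removed with cubic splines (5 knots, scikit-learn 1.9.0) over 10698 genes, or 90.6% of measured genes. With 1 library per group no test was possible. The steps were tested on simulated data.

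The 41 genes, the lists and the thresholds were chosen with earlier results of these data known. By rule, the text gives those of the 41 at least 1.5-fold different, both ends of each role group, and both ends of each other list of mitosis and G1 genes. Other genes of the 41 are given for completeness. Marker genes, CENPT and lower genes of the other lists are named outside that rule. A region overlapping another row with at least 1 RPKM was found for 8 of the 41 genes, among them CCNA2, CDC25C, FOXM1, BUB1B, CENPA, CENPN and KIF20A, and how shared reads were split is not known. Of 7 pseudogenes named after 4 of the genes, none reached 1 RPKM.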

Additional observations from a re-analysis of the deposited data

How the results depend on the processing

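The values were recomputed under 10 alternatives. The median log2 ratio of the 41 genes, -0.24 as reported, was -0.20 with a pseudocount of 5, -0.13 after centring on the median gene, -0.088 with upper-quartile scaling, -0.13 when the scale left out small RNAs and the genes of mitochondria and ribosomal proteins, -0.39 when rescaled to a fixed total and -0.073 with exon length and GC corrected. The count of genes at least 1.5-fold lower, 7 as reported, was 4 with upper-quartile scaling (CDK1, CENPA, CENPW and NDC80) and 3 after the length and GC correction, which also put 1 gene, NUSAP1, at least 1.5-fold higher where none was reported. Genes at least 2-fold lower, of which none was reported, numbered 2 with a pseudocount of 0.1 and 3 when rescaled to a fixed total. Background shares moved with these settings. At least 1.5-fold lower were 5.57% of all genes with upper-quartile scaling and 4.42% after the correction, and at least 2-fold lower were 4.51% with a pseudocount of 0.1 and 3.20% when rescaled to a fixed total. The remaining counts stayed within 1.5 times the reported ones. Of 410 values of single genes under the alternatives, 19 moved by more than their counting interval allows and none of the genes at least 1.5-fold lower changed sign. Values of the 41 genes were the reported ones with no minimum, with a minimum of 5 RPKM and with the highest row in place of the sum. Part of the 410 values therefore could not move. No paired analysis was possible because each group has 1 library. Depth limits CENPW, CDC25C and CENPA most, with 30 reads or fewer in the ANGPTL4 library.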

Other observations

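Genes of the G1 phase of the cell cycle were measured beside the 41. Of 15 measured G1 cyclins, CDK inhibitors and their partners, 1 was at least 1.5-fold lower in the ANGPTL4 library and none higher, against 9.25% and 3.08% of all measured genes, and their median log2 ratio was -0.09. CDK4, the kinase of D-type cyclins, was at 9.27 RPKM in the ANGPTL4 library and 17.8 RPKM in the vector control library (ratio 0.520, 95% interval for counting error 0.411 to 0.654). CDKN2D, at the upper end of that list, was at 4.32 RPKM in the ANGPTL4 library and 3.75 RPKM in the vector control library, with an interval that held 1 (0.642 to 2.02).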
